A study of Mus musculus with 10 samples.

Results

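Peaks of RNA polymerase II (Pol II) that were strong both in the mouse embryonic stem (ES) line ES-E14TG2a and in primary fibroblasts of mouse embryos (MEFs) are described here. They are pairs of overlapping autosomal peaks, 1 from each cell type, in which both peaks were narrower than 4000 bp and both had a score at or above the 75th percentile of their own list. The rule found 1662 pairs among the 8914 overlapping pairs of the series, and these pairs held 1662 of 32345 ES peaks and 1645 of 13306 MEF peaks. The pairs were chosen by their scores, their widths and their overlap, so values of these measures are given as a description.

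The study used chromatin immunoprecipitation sequencing (ChIP-seq) with the N-20 antibody to Pol II and with antibodies to POLR3C, POLR3G and POLR3GL, which are subunits of RNA polymerase III (Pol III), in untreated cells of both types. ES-E14TG2a is an established male mouse line and was grown with LIF, a cytokine that keeps ES cells undifferentiated. MEFs came from E12.5 embryos and had been passaged 3 to 5 times without LIF, and they are a mixed primary population rather than a clone. There was 1 library per antibody and cell type, so no value has a replicate check and no test over samples could be made. The intervals printed with shares are exact Clopper-Pearson 95% intervals, which cover counting error over peaks only. The depth of each library is unknown. All positions are on the mouse build mm9, and no gene was assigned to any peak, since the gene table at hand belongs to another build. For the same reason the cell type labels were not checked against marker genes.

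Pol II makes messenger RNAs and many small nuclear RNAs. In animal cells it gathers at gene starts, where it often pauses a short way into the gene before elongating, and ChIP signal of its largest subunit is therefore usually highest there. The N-20 antibody was raised against the amino-terminal part of that subunit, away from its phosphorylated tail. Genes that most cells need, such as those for ribosomal proteins, histones and metabolic enzymes, are the classical example of promoters that hold Pol II in unlike cell types. Pol III makes tRNAs, 5S rRNA and other short RNAs, and Pol II is often found near its genes.

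The pairs were a small part of the ES list and a larger part of the MEF list. Of the autosomal peaks narrower than 4000 bp, 1662 of 30264 ES peaks (5.49%) and 1645 of 12488 MEF peaks (13.2%) belonged to a strong shared pair, where 26.1% of these ES peaks and 61.6% of these MEF peaks overlapped any peak of the other list. Among strong peaks only, the pairs held 1662 of 6530 ES peaks (25.5%, 24.4 to 26.5%) and 1645 of 3102 MEF peaks (53.0%, 51.3 to 54.8%). The ES list is longer, which bounds its share. Of the 7607 overlapping pairs that met the limits on width and chromosome, 1662 were strong in both cell types, 3205 in neither, 1723 only in ES cells and 1017 only in MEFs. Another 310 autosomal pairs were strong in both but held a peak of 4000 bp or wider. In 201 of them it was the ES peak alone, in 67 the MEF peak alone and in 42 both.

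The score of 275.15 in ES cells and of 244.41 in MEFs set the lower edge. Just inside it lay the pair on chromosome 9 from 3403473 to 3404929, with scores of 339.1 in ES cells and 244.76 in MEFs, and the pair on chromosome 9 from 20263597 to 20265137, with 275.82 and 356.81 in ES cells and MEFs. Just outside it lay the pair on chromosome 4 from 133139733 to 133141360, with 318.85 in ES cells and 244.36 in MEFs, and the pair on chromosome 11 from 102889182 to 102890962, with 275.08 in ES cells and 339.07 in MEFs. Pairs on either side of the edge thus had nearly the same scores. The deposited score has no stated scale and is not compared in size between the lists. Ranks and percentiles within each list are used instead.

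Nearly all pairs joined a single ES peak to a single MEF peak. There were 1628 one-to-one pairs. The other pairs came from 17 MEF peaks that each spanned 2 strong ES peaks, while 0 ES peaks spanned 2 strong MEF peaks. When partner peaks of any score were counted, 103 of the 1645 MEF peaks overlapped 2 or more ES peaks, against 15 of the 1662 ES peaks that overlapped 2 or more MEF peaks. The splitting thus ran mostly in 1 direction, with the pieces in the longer ES list. It was counted for peaks of the pairs only, so it is not shown to be a trait of strong pairs.

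The 10 pairs highest by the sum of their ranks in both lists lay on 5 chromosomes. The top pair lay on chromosome 4 from 116861911 to 116864860, with an ES score of 3100 and a MEF score of 3100. The MEF score was the highest of its list, and the ES score was shared by 370 ES peaks. The next pairs lay on chromosome 11 from 87256821 to 87258536, with scores of 3100 in ES cells and 2729.22 in MEFs, and on chromosome 11 from 68886356 to 68888255, with 3100 in ES cells and 2693.6 in MEFs. They were followed by a pair on chromosome 3 from 96072910 to 96074375, with 3100 in ES cells and 2666.65 in MEFs. Here the ES peak lay inside the MEF peak and the midpoints were 6.5 bp apart. Pairs close to other top pairs occurred on chromosome 11 from 87275895 to 87277917 (3100 in ES cells and 2571.1 in MEFs) and on chromosome 4 from 116874048 to 116876146 (3100 in ES cells and 1784.46 in MEFs). The remaining 4 of the 10 lay on chromosome 15 from 82978585 to 82981057, chromosome 4 from 131824110 to 131826703, chromosome 11 from 101519456 to 101522923 and chromosome 1 from 72288964 to 72293348. All 10 had the tied ES score of 3100, and their MEF ranks ran from 1 to 13. In the ES list 24 peaks scored above 3100, 3 of them in pairs, and the 370 tied peaks shared rank 25. The order of the 10 therefore rests on the MEF list, and their choice largely does. Widths ran from 998 to 2956 bp in ES cells and from 1434 to 3445 bp in MEFs.

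Within the pairs, the order of the scores agreed only in part between the cell types. Spearman's rho of ES and MEF scores was 0.33 over the 1662 pairs, which share their genomic sites and come from 1 library per cell type. It was 0.30 over the 1618 pairs left without the tied ES score of 3100. By chromosome, rho ran from 0.09 on chromosome 14 (52 pairs) to 0.57 on chromosome 12 (63 pairs), with a median of 0.32 over the 19 autosomes. Within quartile groups of ES peak width it ran from 0.26 to 0.38. Over all 7607 overlapping pairs under the same limits rho was 0.35, and over the 3205 pairs weaker in both it was 0.12. Selecting on both scores narrows their range, so these values are not on an equal footing.

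The agreement was most visible at the top. When the pairs were split into quartile groups by each score, 194 of the 416 pairs in the highest ES quartile group were also in the highest MEF quartile group (46.6%, 41.8 to 51.6%), where independent ranks would give 25%. In the lowest ES quartile group, 144 of 416 pairs were in the lowest MEF quartile group (34.6%, 30.0 to 39.4%). The opposite corners were thinly filled, with 54 of 416 pairs (12.98%) in the highest ES and the lowest MEF quartile group and 53 of 416 (12.7%) in the lowest ES and the highest MEF quartile group. The second ES quartile group was spread more evenly and held 29.9%, 27.2%, 26.0% and 16.9% of its pairs in the 4 MEF quartile groups from low to high. Of the 336 pairs in the top 5% of the ES list, 166 (49.4%) were also in the top 5% of the MEF list. These 166 made up 39.1% of the 425 pairs in the top 5% of the MEF list. The rule had already placed every pair at or above the 75th percentile of both lists. Of all 1662 pairs, 336 were in the ES top 5% and 425 in the MEF top 5%, so the base shares were well above 5%. The percentiles of a pair differed by a median of 5.24 points (quartiles 2.21 and 9.26), and 799 pairs (48.1%) lay within 5 points. No gap could exceed 25 points under the rule, so part of this closeness is set by the selection.

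**Figure D1:**
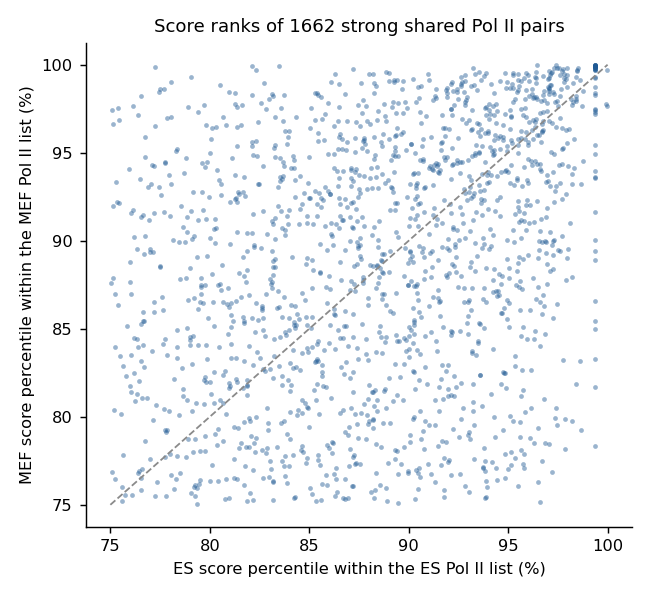
Percentile of the Pol II score within the ES list (x axis, %) and within the MEF list (y axis, %), with 1 point per strong shared pair and a dashed line of equal percentiles. The points fill the whole square and are densest in the upper right corner, and the column of points near 99.4% holds the ES peaks tied at a score of 3100.

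Large gaps in rank occurred in both directions and in like number. The percentiles differed by more than 15 points in 127 pairs, of which 61 were higher in ES cells and 66 in MEFs. Over all pairs, the percentile was higher in ES cells in 769 and in MEFs in 893. The largest gap toward ES cells was at chromosome 14 from 19101704 to 19104570, at percentile 96.6 in ES cells and 75.2 in MEFs. It was followed by chromosome 1 from 9930900 to 9934707 (99.4 in ES cells, 78.3 in MEFs) and chromosome 6 from 148844029 to 148845511 (97.2 in ES cells, 76.9 in MEFs). Wide ES peaks over narrower MEF peaks were seen at the next ones, with widths of 3022 bp (ES) and 941 bp (MEFs) at chromosome 15 from 76544966 to 76547987, and of 3450 bp (ES) and 1256 bp (MEFs) at chromosome 6 from 124761305 to 124764754.

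Toward MEFs, the largest gap was at chromosome 1 from 72272773 to 72276301, at percentile 77.3 in ES cells and 99.9 in MEFs, where the ES peak was 1132 bp and the MEF peak 3529 bp wide. The next lay on chromosome 10 from 80499552 to 80500522 (75.1 in ES cells, 97.4 in MEFs), on chromosome 15 from 99081977 to 99083600 (75.4 in ES cells, 97.5 in MEFs), on chromosome 4 from 143001882 to 143003433 (76.6 in ES cells, 98.2 in MEFs) and on chromosome 18 from 63850684 to 63852933 (76.2 in ES cells, 97.7 in MEFs). The pair on chromosome 1 lies a short way from the top pair that ends at 72293348, which was at percentile 99.4 in ES cells and 99.9 in MEFs. Neighbouring pairs thus could differ in how they ranked in ES cells while both ranked high in MEFs.

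The peaks of the pairs, all under the width limit, were of like width in both cell types. That limit had left out 201 strong pairs for the ES peak alone and 67 for the MEF peak alone. The 1662 ES peaks had a median width of 1504.5 bp (quartiles 1120 and 2059 bp) and the 1645 MEF peaks one of 1533 bp (quartiles 1161 and 2079 bp). The ES peak was the wider peak in 843 of 1662 pairs (50.7%, 48.3 to 53.2%), where 46.8% of all 7607 overlapping pairs had the wider peak in ES cells, and in pairs weaker in both the share was 39.7% (38.0 to 41.4%). The ratio of ES to MEF width had a median of 1.00 and quartiles of 0.77 and 1.29. More than a 2-fold difference in width was found in 220 pairs (13.2%), with the wider peak in ES cells in 104 and in MEFs in 116, against 22.1% of pairs weaker in both. Across pairs the widths were only loosely related (rho = 0.39, 1662 pairs). Over the same 1662 pairs, score and width were related with a rho of 0.49 in ES cells and of 0.17 in MEFs, and neither score was closely related to the width in the other cell type (rho = 0.14 for ES score and MEF width, 0.08 for MEF score and ES width).

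**Figure D2:**
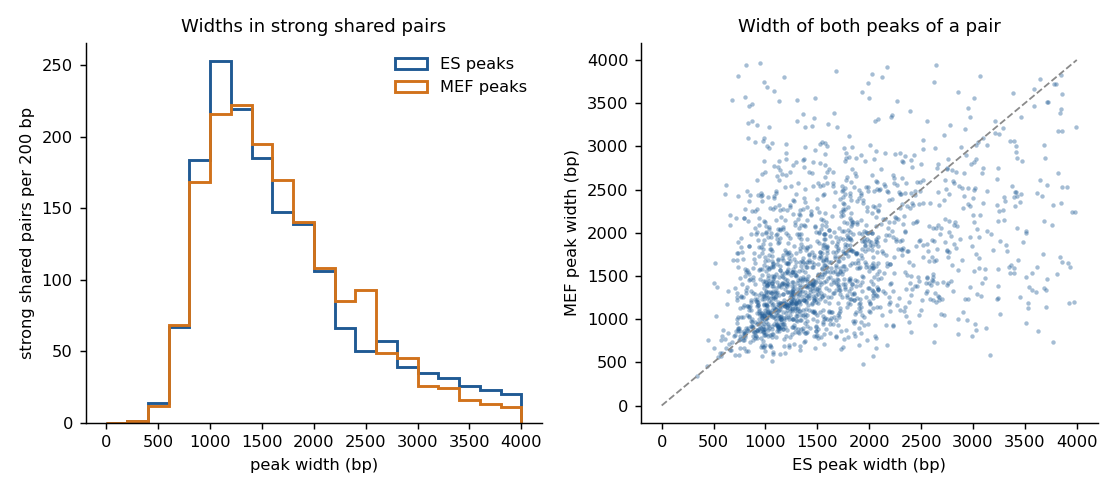
Left, number of strong shared pairs per 200 bp of peak width (x axis, bp) for ES peaks and MEF peaks; right, ES peak width against MEF peak width (both bp), with 1 point per pair and a dashed line of equal widths. The histograms nearly coincide, with medians near 1500 bp, while the points scatter widely on both sides of the line.

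Strong ES peaks without any partner in MEFs were wider than the ES peaks of the pairs, with a median of 2115 bp for 3048 peaks, although both sets passed the same score threshold. Strong MEF peaks without a partner had a median of 1709 bp (388 peaks). Weaker peaks with a partner were narrow, at 831 bp in ES cells (4414 peaks) and 986 bp in MEFs (4980 peaks). Because the rule used both score and width, these medians are descriptions.

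The peaks of a pair covered much the same stretch. Their shared bases made up a median of 71.3% of the span covered by either peak (quartiles 54.7 and 83.4%), against 60.7% in pairs weaker in both. In 931 of 1662 pairs (56.0%, 53.6 to 58.4%) one peak lay wholly inside the other, where the share was 55.1% over all overlapping pairs. It was the ES peak that lay inside in 459 pairs and the MEF peak in 472. In the pairs without containment, the ES peak was shifted toward lower positions in 366 and toward higher positions in 365. At least 50% of the shorter peak was shared in 1649 pairs (99.2%), against 93.3% of pairs weaker in both, and 1 pair shared under 10% of the shorter peak.

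The midpoints lay about as close together as in all overlapping pairs, and on no preferred side. The absolute offset between the ES and the MEF midpoint had a median of 177.5 bp (quartiles 68.5 and 374 bp), against 182.5 bp over all 7607 pairs. It was at most 200 bp in 890 of 1662 pairs (53.5%, 51.1 to 56.0%), where 53.1% of all overlapping pairs were as close, at most 500 bp in 85.1% against 81.3% of all, and at most 1000 bp in 97.4% against 95.5% of all. The ES midpoint had the higher position in 833 pairs and the lower in 828, with a median difference of 0.5 bp. Positions follow the chromosome and not the direction of transcription, so a shift along genes would not appear in these counts. Each midpoint lay inside the partner peak in 1499 pairs (90.2%), against 76.7% of pairs weaker in both.

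How the offset compares with that of weaker pairs depends on width. The plain median was larger in the strong pairs, at 177.5 bp against 152 bp in the 3205 pairs weaker in both. As a share of the mean width of the pair it was smaller, at 11.3% against 17.1%. When all 7607 pairs were split into quartile groups by mean width, the median offset of the strong pairs was below that of pairs weaker in both in each quartile group. In the narrowest quartile group it was 66.5 bp (79 strong pairs) against 88 bp (1464 weaker pairs). In the second quartile group it was 91.25 bp (294 pairs) against 186 bp (893 pairs), and in the third 170.25 bp (524 pairs) against 347.5 bp (529 pairs). In the widest quartile group it was 286.5 bp (765 pairs) against 656.5 bp (319 pairs). Pairs strong in 1 cell type lay between them in each quartile group, for example at 444.25 bp (strong in ES cells only) and 561.5 bp (strong in MEFs only) in the widest. The quartiles of the classes overlapped in every quartile group. Among the strong pairs, the offset was hardly related to the score (rho = 0.08 with the ES score and -0.04 with the MEF score).

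**Figure D3:**
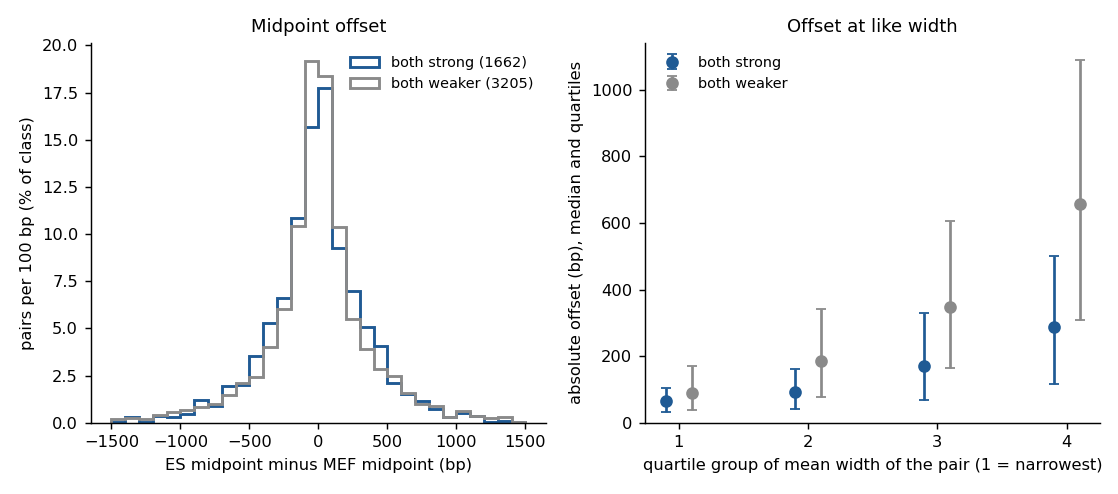
Left, difference between ES and MEF midpoints (x axis, bp) for pairs strong in both and pairs weaker in both, as % of each class per 100 bp; 6 and 37 pairs beyond 1500 bp are not drawn. Right, absolute offset (bp, median with quartiles) by quartile group of the mean width of a pair, where the strong pairs have the lower median in all 4 quartile groups.

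The largest offset was found at chromosome 6 from 124687616 to 124692175, where the midpoints were 2146.5 bp apart and 267 bp was shared by an ES peak of 1837 bp and a MEF peak of 2990 bp. On chromosome 13 from 23773825 to 23778489 the offset was 2040 bp between an ES peak at a score of 3100 and a MEF peak at 1333.3. The third lay on chromosome 3 from 104589069 to 104594167, with an offset of 1856.5 bp and 1386 bp shared by an ES peak of 2856 bp and a MEF peak of 3629 bp. In all 3 the MEF peak was the wider and lay toward higher positions. The smallest non-zero offset, 0.5 bp, was found among others on chromosome 1 from 95374223 to 95376812, chromosome 12 from 60167251 to 60168303 and chromosome 13 from 93961085 to 93963168.

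The pairs were spread over all 19 autosomes in step with the Pol II peaks as a whole. Chromosome 11 held the most, with 163 pairs (9.81%, 8.42 to 11.3%), followed by chromosome 7 with 139 (8.36%, 7.08 to 9.80%) and chromosome 2 with 116 (6.98%). Chromosome 14 held the fewest, with 52 (3.13%). Chromosome 11 also held 9.31% of all ES peaks and 7.70% of all MEF peaks under the same limits, and chromosome 7 held 7.16% of the ES and 6.87% of the MEF peaks. The number of pairs followed the number of peaks on a chromosome, with a rho over the 19 chromosomes of 0.94 for ES and 0.94 for MEF peaks, which share the lists the pairs come from. The share of a chromosome's ES peaks that belonged to a pair ran from 4.56% on chromosome 8 to 6.67% on chromosome 18, and that of its MEF peaks from 11.3% on chromosome 3 to 16.7% on chromosome 11.

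**Figure D4:**
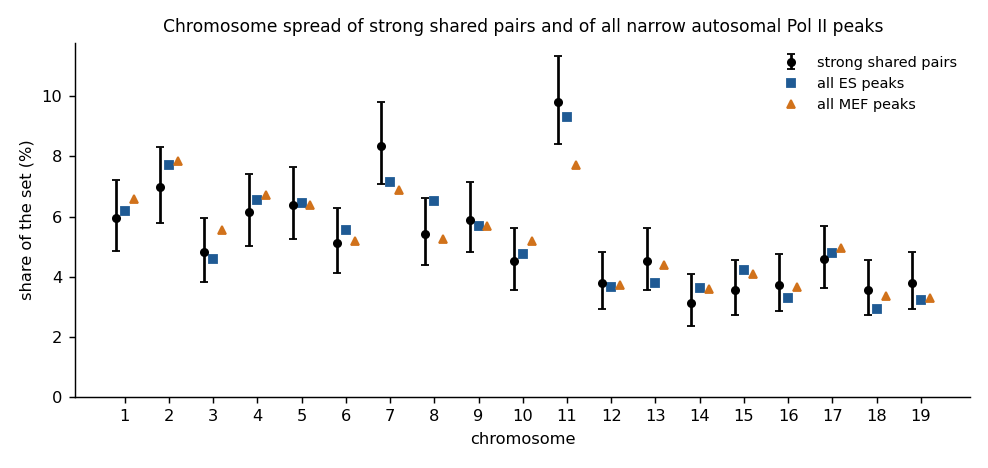
Share (%) of the strong shared pairs, of all ES peaks and of all MEF peaks (autosomal, narrower than 4000 bp) on each chromosome; bars are exact 95% intervals of the share of pairs. The pairs peak at 9.81% on chromosome 11, where the ES peaks stand at 9.31% and the MEF peaks at 7.70%.

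Along the chromosomes, gaps of 10 kb or less made up a like share for the pairs and for all strong MEF peaks, though the pairs were further apart at the median. The median gap between neighbouring pairs was 464 kb (quartiles 124 and 1621 kb), against 238 kb between all 3102 strong MEF peaks. Of the gaps between pairs, 55 of 1643 were 10 kb or less. They include those within the 17 MEF peaks that each held 2 pairs, which raises the share. The 55 were 3.35% of gaps, against 3.15% between all strong MEF peaks, 21.6% between all strong ES peaks, 15.2% between all MEF peaks and 55.3% between all ES peaks. A denser group, looked for after the values were seen, lay on chromosome 13 from 23621931 to 23853944. It held 16 of the 75 pairs of that chromosome in 232 kb. In mouse, large clusters of replication-dependent histone genes and of tRNA genes are known on chromosome 13, though none was matched to these peaks. Of the 16 ES peaks, 7 had the tied score of 3100, and the median percentile was 98.2 in ES cells and 97.7 in MEFs. The 16 pairs used only 12 MEF peaks, and 4 of the 17 MEF peaks that spanned 2 strong ES peaks lay here. One of them reached from 23711283 to 23714816 with a score of 1693.82 and covered ES peaks scored 391.95 and 423.56. Offsets within the group ran from 1.5 to 2040 bp. Peaks at 23662855 to 23663438 in ES cells and 23662838 to 23663442 in MEFs were nearly congruent, with midpoints 6.5 bp apart. The next densest stretches of 1 Mb held 13 pairs on chromosome 3 from 95428226, where a smaller histone gene cluster is known in mouse, and 11 on chromosome 7 from 52103513. These stretches held 73 ES and 38 MEF Pol II peaks on chromosome 3, and 105 ES and 37 MEF peaks on chromosome 7. The stretch of 1 Mb from 23621931 on chromosome 13 held fewer, 35 ES and 21 MEF peaks.

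ES peaks of the pairs had another ES Pol II peak close by less often than all ES peaks did. Another ES peak lay within 5 kb of 745 of the 1662 (44.8%, 42.4 to 47.3%), where 65.5% of all narrow autosomal ES peaks had one. The share was 58.7% (56.4 to 61.0%) for strong ES peaks whose partner failed the rule, 76.6% (75.1 to 78.1%) for strong ES peaks without a partner and 41.4% (40.0 to 42.9%) for weaker ES peaks with a partner. In MEFs another MEF peak lay within 5 kb of 155 of the 1645 peaks (9.42%, 8.05 to 10.9%), against 15.6% of all. Strong MEF peaks whose partner failed the rule had nearly the same share as the pairs, 9.26% (7.59 to 11.2%), and all strong MEF peaks had 9.99%. Strong MEF peaks without a partner had 14.4% (11.1 to 18.3%) and weaker ones with a partner 18.5% (17.5 to 19.6%). The order of the classes differed between the cell types, since weaker peaks with a partner had the lowest share of the 5 classes in ES cells and the highest in MEFs. These intervals take peaks as independent, which neighbouring peaks are not.

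Few pairs lay near a Pol III peak. Distances were taken between edges, and no adjustment for width was made. Peaks of the pairs were wider at the median than all narrow autosomal peaks, at 1504.5 against 931 bp in ES cells and 1533 against 1064 bp in MEFs. An ES Pol III peak was within 5 kb of 21 of the 1662 ES peaks (1.26%, 0.784 to 1.92%), where 0.605% of all narrow autosomal ES peaks were as near, and 12 overlapped one (0.722%, 0.374 to 1.26%), against 0.317%. A MEF Pol III peak was within 5 kb of 17 of the 1645 MEF peaks (1.03%, 0.603 to 1.65%), close to the 0.905% of all MEF peaks, and 11 overlapped one (0.669%, 0.334 to 1.19%), against 0.641%. In ES cells the interval of the pairs lay above the share of all peaks for both distances, and in MEFs it held that share. Within 50 kb the shares were 3.79% in ES cells (2.92 to 4.82%) against 2.74% of all ES peaks. In MEFs they were 3.40% (2.58 to 4.40%) against 2.51% of all MEF peaks, so at that distance the interval lay above the share of all peaks in both. All strong peaks, which include the pairs, had 3.54% in ES cells and 3.19% in MEFs at 50 kb, inside these intervals. Strong peaks without a partner had 3.87% in ES cells and 2.06% in MEFs. All strong ES peaks also lay inside the ES intervals within 5 kb (0.980%) and for overlap (0.521%). Because that set includes the pairs, the separate classes are given too. Overlap with Pol III was 0.659% for strong ES peaks whose partner failed the rule and 0.816% for weaker ES peaks with a partner. It was 0.328% (0.157 to 0.603%) for strong ES peaks without a partner, near the share of all ES peaks. The excess in overlap was thus not particular to the pairs in ES cells, but strong ES peaks without a partner did not have it. The difference between the cell types was not tested. The share within 5 kb was 1.22% (0.920 to 1.59%) for weaker ES peaks with a partner, close to that of the pairs, 0.886% (0.585 to 1.29%) for strong ES peaks without one and 0.336% (0.260 to 0.429%) for weaker ES peaks without one. In MEFs it was 1.10%, 1.29% and 0.545% in the same classes. Intervals of the pairs overlapped those of each class except weaker ES peaks without a partner.

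**Figure D5:**
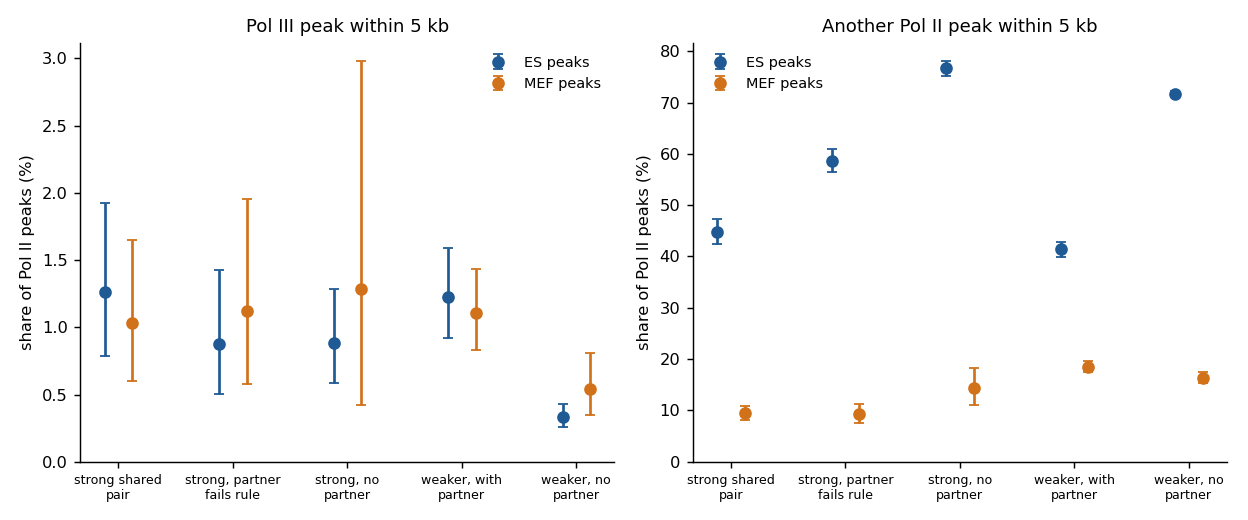
Share (%) of Pol II peaks with a Pol III peak of the same cell type within 5 kb (left) and with another Pol II peak of the same list within 5 kb (right), for peaks of strong shared pairs and for the other autosomal peaks narrower than 4000 bp; bars are exact 95% intervals. The pairs stand at 1.26% in ES cells and 1.03% in MEFs on the left, and at 44.8% in ES cells and 9.42% in MEFs on the right.

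The nearness to Pol III was mostly shared by both cell types. Over pairs, 22 had a Pol III peak within 5 kb in either cell type and 17 in both. No such share is given for all overlapping pairs, so this is not shown to be particular to the strong pairs. The 22 lay on 10 chromosomes, with 5 on chromosome 11, 4 on chromosome 6 and 3 each on chromosomes 3 and 13. Seen from Pol III, 13 of 311 autosomal POLR3C peaks of ES cells (4.18%) and 12 of 274 of MEFs (4.38%) overlapped a peak of the pairs, as did 9 of 231 POLR3GL peaks in ES cells (3.90%) and 11 of 263 in MEFs (4.18%). POLR3G overlapped the pairs in 11 of 176 cases in MEFs (6.25%) and in 0 of 3 in ES cells, where only 3 POLR3G peaks were autosomal. Any Pol II peak was overlapped by 106 of the 311 POLR3C and 79 of the 231 POLR3GL peaks in ES cells. In MEFs the numbers were 87 of 274 for POLR3C, 84 of 263 for POLR3GL and 66 of 176 for POLR3G. POLR3G thus had the largest share in MEFs for any Pol II peak as well.

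An overlap with Pol III in at least 1 cell type was found for 15 pairs, and for 9 of them in both. The highest in rank was on chromosome 13 from 23621931 to 23625906, with Pol II scores of 3100 in ES cells and 374.22 in MEFs. POLR3C scored 2522 there in ES cells and 252 in MEFs, and POLR3GL scored 36 in ES cells and 69 in MEFs. Its MEF peak also overlapped a second ES peak, which made up 1 of the 15 pairs. On chromosome 6 from 38482483 to 38485610 the Pol II scores were 1757.99 in ES cells and 514.73 in MEFs, and POLR3C scored 2457 in ES cells and 250 in MEFs. The pair on chromosome 11 from 115272849 to 115276835 held 2 Pol III sites, scored 1612 and 1248 by POLR3C in ES cells and 241 and 240 in MEFs. Pol III scores are likewise not compared in size between lists.

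The other pairs overlapping Pol III in both cell types lay on chromosome 6 from 47737640 to 47739474, chromosome 19 from 3575298 to 3576751, chromosome 3 from 90279491 to 90280973, chromosome 14 from 55135434 to 55136799, chromosome 8 from 113520569 to 113523243 and chromosome 6 from 86353680 to 86355625. At chromosome 3 POLR3C scored 2886 in ES cells and 236 in MEFs. In ES cells POLR3G was called at 0 of these 9 pairs. Only 3 ES POLR3G peaks were autosomal and 0 of them overlapped any Pol II peak, so no other value was possible. In MEFs POLR3G was called at 8 of the 9. The exception was chromosome 8, where POLR3C alone was called, with 403 in ES cells and 103 in MEFs. On chromosome 11 from 48630025 to 48632343 and chromosome 14 from 79880646 to 79882733 the MEF peak overlapped Pol III, while the narrower ES peak ended 475 and 59 bp short of the nearest ES Pol III peak.

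In 3 pairs Pol III was called in ES cells only, by POLR3C alone and at low scores. These were chromosome 11 from 87859622 to 87862100 (377), chromosome 6 from 146590459 to 146592491 (377) and chromosome 16 from 30510462 to 30513412 (273), in a list whose autosomal sites without Pol II had a median of 1547. No MEF Pol III peak lay within 5 kb of them. With the POLR3GL list alone, an alternative chosen after seeing the data, 15 of the 1662 ES peaks (0.903%, 0.506 to 1.48%) and 14 of the 1645 MEF peaks (0.851%, 0.466 to 1.42%) were within 5 kb, against 0.397% of all ES and 0.793% of all MEF peaks.

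At the 10 POLR3C sites inside pairs that overlapped Pol III in both cell types, the position of POLR3C hardly moved between the cell types. The ES and MEF midpoints of POLR3C were a median of 9.5 bp apart (0 to 82 bp), while those of Pol II in the same pairs were a median of 176.75 bp apart (30.5 to 685.5 bp). POLR3C peaks have 1 fixed width per list, so their midpoints are defined more narrowly than those of Pol II. The POLR3C midpoint lay off the Pol II midpoint at every site, by a median of 386 bp in ES cells (212.5 to 959 bp) and of 517 bp in MEFs (126 to 1726.5 bp). At chromosome 14 from 55135434 to 55136799 the MEF POLR3C peak reached 137 bp beyond the MEF Pol II peak, and at chromosome 6 from 86353680 to 86355625 the ES POLR3C peak reached 131 bp beyond the ES Pol II peak.

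Pairs near Pol III were wider at the median than the other pairs and close to them in offset and rank. Nearness was measured between edges, so a wider peak meets the limit of 5 kb more readily. The MEF peak of 3939 bp on chromosome 13 also counts more than once here. The 22 pairs within 5 kb had median widths of 1828.5 bp (ES) and 1857 bp (MEFs), against 1500 bp (ES) and 1539.5 bp (MEFs) for the other 1640 pairs. Their median offset was 176.75 bp, against 177.5 bp, and their median percentiles were 90.03 in ES cells and 90.7 in MEFs, against 89.1 in ES cells and 89.6 in MEFs. Among the 10 pairs highest by the sum of ranks, only chromosome 11 from 68886356 to 68888255 was within 5 kb of Pol III. A Pol III peak lay 1094 bp from it in ES cells and 9351 bp in MEFs.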

How the data were processed

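Peak lists of 8 ChIP libraries were used, and the 2 input libraries were not analysed here. The submitters' processing notes name HOMER, SAMtools, Bowtie and CASAVA and the mouse build mm9, and Pol II peaks carry MACS names. For the caller's settings, its control and any pooling, values were not given in the sources used here. The deposited score of each peak, made by the authors, has no stated scale and a minimum of 50 in the Pol II lists. Per the labels' protocols, sonication gave chromatin of 200 to 700 bp on average, which limits how finely edges and midpoints can be read.

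Starts were read as 0-based and are printed 1-based. Overlap needed 1 bp, percentiles came from all peaks of a list, and distances are gaps between edges. No chance placement or set test was made. Overlap and distance code was tested on simulated peaks. The code ran under pandas 2.3.3, scipy 1.17.1 and numpy 2.4.6 in Python 3.11.15.

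The pairs, the classes they are set beside and the rule for named loci were chosen with earlier results of these data known. That rule took the 10 pairs with the smallest sum of ranks, the 5 largest rank gaps in each direction, the 3 largest and 3 smallest non-zero offsets, up to 15 pairs overlapping Pol III, and pairs at the threshold. Its parts for genes, markers and sequences need an mm9 annotation and were not applied. Alternatives changed the percentile, width limit, overlap, chromosomes, multiplicity, distance and Pol III list.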

Additional observations from a re-analysis of the deposited data

How the results depend on the processing

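Of 61 alternative values, 45 stayed within 1.5 times the main count or inside the 95% interval of the main value, and 16 did not. For this tally, intervals of medians came from ranked values and those of rho from Fisher's z transform. Counts, widths, absolute offsets and shares cannot be negative, so only rho could change sign, and it did not. The number of pairs, 1662 as reported, was 3976 at the 50th percentile, 459 at the 90th and 957 with widths below 2000 bp. The median width was 1226 bp (ES) and 1344.5 bp (MEFs) at the 50th percentile, 1898 bp (ES) and 1702 bp (MEFs) at the 90th, and 1650 bp (ES) and 1623 bp (MEFs) with no width limit. Without the width limit, rho of the scores was 0.29 and the median offset 230.25 bp. These changes follow from the sets chosen, since wider and higher-scored peaks are let in or left out. By quartile groups of mean width, chosen after seeing the data, the median offset was 66.5 bp in the narrowest and 286.5 bp in the widest. The share near Pol III was 0.722% in ES cells for overlap, and 3.79% in ES cells and 3.40% in MEFs within 50 kb, where all peaks had 2.74% and 2.51% in ES cells and MEFs. Chromosome 11 held the most pairs under each of the 8 other settings of the rule. Pairs counted one-to-one numbered 1628, and those sharing at least 50% of the shorter peak 1649. No paired analysis was possible because each antibody and cell type has 1 library. Unknown depth limits what an absent partner or a missing Pol III call can show.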
